A study of Mus musculus with 6 samples.

Results

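Adipokines are proteins that fat cells secrete, and this account follows 10 genes: 8 that encode secreted factors (Adipoq, Retn, Retnla, Lep, Agt, Apln, Rarres2 and Serpinf1) and the adiponectin receptor genes Adipor1 and Adipor2. The members are all 16 probe sets whose platform annotation names exactly 1 of these genes, out of 18193 genes named in this way on the array. A probe set is a group of short oligonucleotides that together measure 1 transcript, and 6 of the genes have 1 probe set while 4 have several. Cells of 3T3-L1, a mouse line of embryonic origin widely used to study how preadipocytes become fat cells, were profiled on Affymetrix arrays, with 3 arrays from cultures treated with resveratrol, a polyphenol of grapes and other plants, and 3 from control cultures. The labels state neither dose nor duration nor whether the cells had been differentiated. Nor do they say how independent the cultures were, so p-values reflect the spread between these cultures, which may be technical, and the small number of arrays limits the precision.

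Adiponectin, made almost only by fat cells, circulates as multimers built in the endoplasmic reticulum and acts on target cells through the receptors encoded by Adipor1 and Adipor2, which couple to AMP-activated kinase and ceramide metabolism. Resistin in mice comes mainly from white fat and opposes insulin action, while its relative from Retnla, also called RELM-alpha or FIZZ1, is best known from alternatively activated macrophages and also found in mouse adipose tissue. Angiotensinogen is the precursor of the angiotensin peptides, chemerin (Rarres2) attracts immune cells and affects adipogenesis, and pigment epithelium-derived factor (Serpinf1) is a serpin that promotes lipolysis.

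Agt and Retnla were higher in resveratrol cultures, Retn and Rarres2 were lower, and no probe set of Adipoq, Apln, Serpinf1 or either adiponectin receptor passed the test. The test was limma on the log2 of intensity plus 16, adjusted over all 27022 probe sets tested, with a threshold of 0.05. Of the 16 probe sets, 15 were bright enough to be tested and 5 passed, where 8.22% of all probe sets tested did. Of the 15, 2 passed as higher, where 3.99% of all probe sets tested did, and 3 as lower, where 4.23% did. Rarres2 accounts for 2 of the 3 lower. Of 9 member genes tested by their brightest probe set, 2 were higher and 2 lower. Of all genes tested in this way, 5.34% were higher and 5.21% lower. The arrays of both groups lay apart for 7 of the 15, where 26.4% of all probe sets tested lay apart. The median log2 change was -0.01 over the 15 and 0.01 over all probe sets tested. Only 2 of the members passed when control replicate 1, control replicate 2, resveratrol replicate 2 or resveratrol replicate 3 was left out, and these were Agt and Retnla each time. In RNA from whole cultures, a change in the number of cells that express a gene and a change in RNA per cell cannot be told apart.

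**Figure D1:**
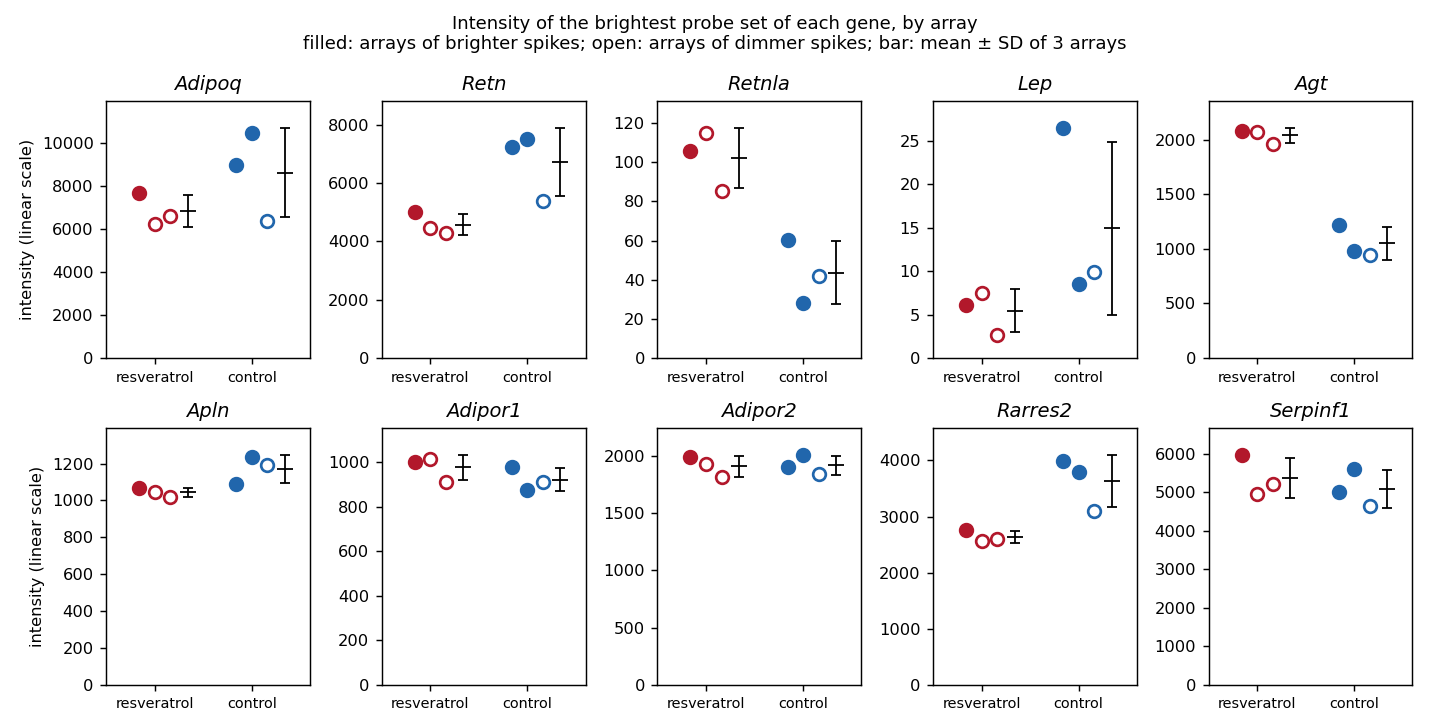
Intensity on a linear axis from 0 for the brightest probe set of each of the 10 genes, with 1 point per array, resveratrol in red and control in blue, and a bar for the mean ± SD of 3 arrays. All resveratrol points of Agt (1965 and above) lie above all control points (1218 and below), whereas the points of Adipor1 and Adipor2 overlap.

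The promoters of the members with the clearest rises, Agt and Retnla, are shown beside that of Retn, which moved the other way, so that the sequence next to the start of each gene can be compared. Each is the 250 bases before the annotated start, 5′ to 3′ on the strand of the gene, from RefSeq. Capitals mark matches to 5 motifs searched on both strands.
Agt promoter, GRCm38.p6 chr8:124569707-124569956, - strand: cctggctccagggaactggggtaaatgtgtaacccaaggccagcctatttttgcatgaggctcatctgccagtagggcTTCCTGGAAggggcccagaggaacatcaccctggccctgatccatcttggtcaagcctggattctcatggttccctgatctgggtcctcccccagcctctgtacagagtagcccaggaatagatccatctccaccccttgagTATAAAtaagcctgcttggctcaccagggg
Retnla promoter, GRCm38.p6 chr16:48842359-48842608, + strand: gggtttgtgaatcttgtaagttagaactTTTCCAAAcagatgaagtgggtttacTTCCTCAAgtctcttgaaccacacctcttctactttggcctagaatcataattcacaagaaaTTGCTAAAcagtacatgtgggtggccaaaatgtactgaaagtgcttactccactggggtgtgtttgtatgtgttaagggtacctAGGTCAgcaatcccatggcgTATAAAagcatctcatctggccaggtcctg
Retn promoter, GRCm38.p6 chr8:3655520-3655769, + strand: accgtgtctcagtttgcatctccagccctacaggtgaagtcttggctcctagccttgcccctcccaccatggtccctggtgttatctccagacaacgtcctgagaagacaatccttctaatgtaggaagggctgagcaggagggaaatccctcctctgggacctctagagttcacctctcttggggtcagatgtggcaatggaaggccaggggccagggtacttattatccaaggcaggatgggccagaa

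Motifs were the TATA box (TATAAA), a C/EBP site (TTNNGNAA), a STAT site (TTCNNNGAA), a nuclear receptor half-site (AGGTCA) and a hypoxia response site (ACGTG). They occur in 12.4%, 36.8%, 7.02%, 14.0% and 16.6% of the 32851 promoter windows of this length. The Agt window holds a TATA box that begins 30 bases before the start and 1 match to the STAT letters, TTCCTGGAA, that begins 172 bases before it. The Retnla window holds a TATA box, also 30 bases before the start, 3 matches to the C/EBP letters at 222, 196 and 134 bases and the nuclear receptor letters at 50 bases, and no matches overlap in either window. None of the 5 motifs has its letters in the Retn window. Of members whose promoters are not shown, Adipoq, Adipor2 and Lep have C/EBP letters and Serpinf1 has nuclear receptor and hypoxia response letters. The windows of Apln and Adipor1 hold no match. Adipoq, Adipor1, Adipor2, Apln and Serpinf1 did not pass the test, and Lep was not tested. A match describes the letters only, and occupancy was not measured.

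Agt, which encodes angiotensinogen, had intensities of 2082, 2073 and 1965 in resveratrol cultures, against 1218, 985 and 946 in control cultures. The groups lay far apart, and the resveratrol arrays differed little among themselves. The mean was 2040.0 ± 64.9 with resveratrol and 1050 ± 147 in controls (SD, n = 3 each), a ratio of 1.94. The log2 change was 0.96 ± 0.10 (SE, 95% interval 0.74 to 1.17) with adjusted p = 0.00018. It was 0.92 among the arrays with brighter spike-in signals and 1.08 among those with dimmer ones. This split, described next to Adipoq, leaves only 1 resveratrol array in the brighter class and 1 control array in the dimmer. Agt passed under all 17 alternative settings, with log2 changes from 0.89 to 1.07.

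Among 10 genes of the angiotensin system on the array, 7 were tested, 1 rose (Agt itself), 1 fell and 5 did not pass, with a median log2 change of 0.0021, where 5.34% of all 12650 genes tested by their brightest probe set rose and 5.21% fell. The gene that fell was Agtr2, which encodes the type 2 angiotensin receptor. Agtr2 had 57.1, 62.4 and 60.4 in resveratrol cultures, against 154, 203 and 278 in control cultures. Every control array was well above every resveratrol array, and the controls were spread widely. Its log2 change was -1.55 ± 0.17 (SE, adjusted p = 0.000327), and it passed under all 17 alternatives. Agtr1a, the type 1 receptor gene that mediates most known angiotensin effects, had 34.0, 20.3 and 32.9 with resveratrol and 30.1, 33.7 and 22.6 in controls, which overlap (log2 change 0.0021, adjusted p = 0.997). Ace, the converting enzyme gene, had -0.07 (adjusted p = 0.867) and Atp6ap2, the prorenin receptor gene, 0.15 (adjusted p = 0.223). Agtr1b, Mas1 and Enpep were too dim to be tested.

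The resistin family moved in opposite directions. Retn, which encodes resistin, had intensities of 4999, 4447.5 and 4286 in resveratrol cultures, against 7239.6, 7528 and 5389.8 in control cultures. All resveratrol arrays were below all control arrays, and control replicate 3 was the closest to them. The mean was 4577 ± 374 with resveratrol and 6719 ± 1160 in controls (SD, n = 3 each), and the log2 change was -0.54 ± 0.13 (SE, 95% interval -0.82 to -0.26) with adjusted p = 0.0254. It was -0.56 within the arrays of brighter spikes, -0.30 within the dimmer-spike arrays, and a fit blocked on the spike signal gave -0.43 (adjusted p = 0.00672). The adjusted p was 0.0798 without control replicate 1, 0.0961 without control replicate 2, 0.103 without resveratrol replicate 2 and 0.0896 without resveratrol replicate 3, with log2 changes from -0.52 to -0.45. The call was also lost with no filter on dim probe sets (adjusted p = 0.0894) and without an intensity trend in the variance (adjusted p = 0.0968).

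Retnla had 106, 115 and 85.5 in resveratrol cultures, against 60.3, 28.3 and 41.8 in control cultures. The groups did not overlap, though controls varied by more than 2-fold between replicates 1 and 2. The mean was 102 ± 15.2 with resveratrol and 43.5 ± 16.1 in controls (SD, n = 3 each), a ratio of 2.35. The log2 change was 1.02 ± 0.19 (SE, 95% interval 0.59 to 1.44) with adjusted p = 0.00878, and it passed under all 17 alternatives, with adjusted p between 0.00303 and 0.0484. The size depended on the offset added before the log, at 1.27 with an offset of 1 and 0.64 with an offset of 64. The family member Retnlb was near the bottom of the scale, between 1.0 and 1.7 on every array, and was not tested. Of the receptors proposed for resistin, Cap1 had a log2 change of 0.13 (adjusted p = 0.351) and Tlr4 one of -0.20 (adjusted p = 0.279).

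Because Retnla is known as a macrophage gene in mice, markers of that cell type were read on the same arrays. Of 15 macrophage markers, 8 were tested, 1 rose and 7 did not pass, where 5.34% of all genes tested rose. The summed intensity of all 15 was between 493 and 587 on resveratrol arrays and between 427 and 475 on control arrays. The marker that rose, Cd14, a co-receptor for bacterial lipopolysaccharide, had a log2 change of 0.47 ± 0.12 (SE, adjusted p = 0.0354), and passed in 2 of the 6 fits that leave out an array. Lyz2 did not pass, at 0.43 ± 0.15 (SE, adjusted p = 0.101), with all resveratrol arrays above all control arrays. The other tested markers that did not pass ran from -0.08 for Spi1 to 0.21 for Cd68, and their groups overlapped. Ptprc, the gene of the pan-leukocyte antigen CD45, lay between 2.6 and 9.3 with resveratrol and between 10.3 and 10.8 in controls. Ptprc, Itgam, Tyrobp, Aif1, Cd163, Chil3 and Arg1 were too dim to be tested, and none of them was listed at exactly 0 on an array. The part of these markers in the result for Retnla was not tested.

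**Figure D2:**
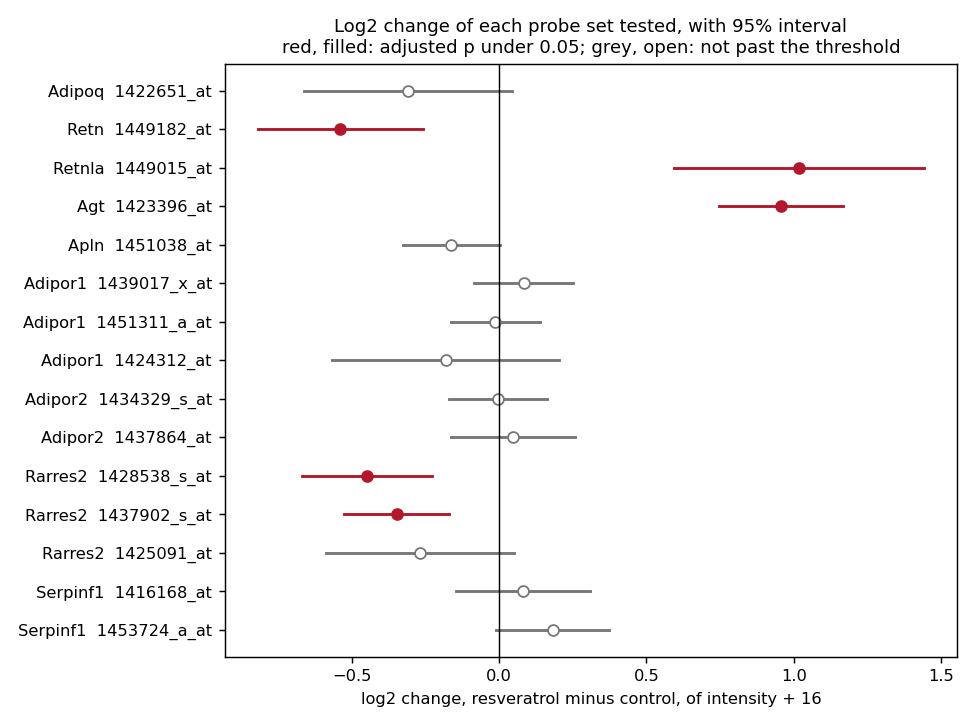
Log2 change of intensity plus 16, resveratrol minus control, for the 15 probe sets tested, with the 95% interval of the limma fit. The intervals of Agt (0.74 to 1.17) and Retnla (0.59 to 1.44) lie above 0, those of Retn and the brighter pair of Rarres2 probe sets lie below 0, and the remaining 10 include 0.

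Adipoq, which encodes adiponectin, had 7679, 6218 and 6623 in resveratrol cultures, against 8971, 10496 and 6394 in control cultures. The groups overlapped, since control replicate 3 was lower than 2 of the resveratrol arrays. The log2 change was -0.31 ± 0.16 (SE, 95% interval -0.66 to 0.04) with adjusted p = 0.301. These intensities are near the top of the scale, where the arrays differ in a way that is present in both groups but unevenly spread over them. On 9 probe sets for spiked-in hybridisation controls, resveratrol replicate 1 and control replicates 1 and 2 were brighter, with mean log2 signals from 10.5 to 10.7, than resveratrol replicates 2 and 3 and control replicate 3, with 9.75 to 10.01. So differences within a class rest on only 1 resveratrol array among the brighter and only 1 control array among the dimmer. The brightest Adipoq array of each group was among the arrays of brighter spikes. Within the arrays of brighter spikes the log2 difference of Adipoq was -0.34, within those of dimmer spikes it was 0.0053, and with the split as a block it was -0.17 (adjusted p = 0.342). After quantile normalization Adipoq did pass, at -0.17 (adjusted p = 0.031), as it did without control replicate 3, at -0.51 (adjusted p = 0.0168).

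Ratios within an array cancel only a factor that acts equally on both probe sets. They were computed for 4 members after their values had been seen, and whether such a factor acted equally was not tested. The ratio of Retn to Adipoq was 0.651, 0.715 and 0.647 in resveratrol cultures and 0.807, 0.717 and 0.843 in control cultures, so the groups came within the third decimal of touching. The ratio of Rarres2 to Adipoq was 0.388 ± 0.026 with resveratrol and 0.430 ± 0.063 in controls (SD, n = 3 each), and the groups overlapped. The ratio of Agt to Adipoq was 0.300 ± 0.031 with resveratrol and 0.126 ± 0.028 in controls (SD, n = 3 each), with the groups far apart. The ratio of Serpinf1 to Adipoq was 0.776, 0.798 and 0.785 with resveratrol and 0.557, 0.534 and 0.725 in controls, which do not overlap. In controls, all 4 ratios were highest on replicate 3, the control array of dimmer spikes. Such a ratio shows unequal change of the pair and does not say which of them moved.

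The genes that help to fold and release adiponectin included clear falls. Of 11 genes of this list, Adipoq among them, 4 fell, none rose and 7 did not pass, with a median log2 change of -0.17 against 0.02 over all genes tested. By their brightest probe set, 5.21% of all genes tested fell and 5.34% rose. Ero1a, the endoplasmic reticulum oxidase that drives disulfide formation and frees adiponectin bound to the chaperone from Erp44, had 1085, 1037 and 1021 in resveratrol cultures, against 3454, 3724 and 3208 in control cultures. Its groups lay far apart, with a ratio of means of 0.303, and the log2 change was -1.71 ± 0.08 (SE, adjusted p = 1.18e-06). Gstk1, which encodes the adiponectin assembly factor DsbA-L, had 149, 161 and 158 with resveratrol and 332, 316 and 329.8 in controls. The log2 change of Gstk1 was -0.99 ± 0.08 (SE, adjusted p = 5.1e-05), and the 3 arrays of each group were close together. The lysyl hydroxylase genes Plod1 and Plod2 fell by 0.64 and 0.68 on the log2 scale. Besides Adipoq, the genes of the list that did not pass ran from -0.17 for Pdia6 to 0.28 for Plod3 (adjusted p = 0.0532), with Hspa5 at -0.15, Erp44 at -0.15, P4hb at 0.0020 and Pdia4 at 0.03. Ero1a, Gstk1, Plod1 and Plod2 passed under all 17 alternatives. Among their other probe sets, 2 of Ero1a and 1 of Plod2 passed and none of Plod1, while Gstk1 has only 1 probe set.

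The adiponectin receptors showed no difference past the threshold. Adipor1, which encodes the receptor most tied to AMP-activated kinase, had 1001, 1015 and 913 in resveratrol cultures, against 977, 876 and 909 in control cultures, at its brightest probe set. The groups overlapped, and the log2 change was 0.08 ± 0.08 (SE, 95% interval -0.09 to 0.25) with adjusted p = 0.607. Its second probe set had 669, 705 and 681 with resveratrol and 685, 684 and 705 in controls, a log2 change of -0.01 (95% interval -0.16 to 0.14, adjusted p = 0.941). The third, far dimmer, had 46.0, 53.8 and 30.0 with resveratrol and 49.6, 47.7 and 53.5 in controls, with resveratrol replicate 3 the lowest, and a log2 change of -0.18 (95% interval -0.57 to 0.20, adjusted p = 0.622). The names of the brightest and second probe sets end in _x_at and _a_at, marks of probe sets that can match more than 1 transcript. Only the third is free of such a mark.

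Adipor2, whose receptor is linked to PPAR-alpha signalling, had 1994, 1930.3 and 1815 in resveratrol cultures, against 1908, 2009 and 1843 in control cultures. The arrays of both groups were interleaved, and the log2 change was -0.0053 ± 0.08 (SE, 95% interval -0.17 to 0.16) with adjusted p = 0.981. The second probe set of Adipor2 had 384, 427 and 444 with resveratrol and 458, 387 and 370.4 in controls, a log2 change of 0.05 (95% interval -0.16 to 0.26, adjusted p = 0.838). The name of the brightest ends in _s_at, which marks a probe set that can match more than 1 transcript, and that of the second has no such mark.

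Of 13 tested genes of the wider receptor family and its signalling, these receptors included, 1 rose, none fell and 12 did not pass. By their brightest probe set, 5.34% of all genes tested rose and 5.21% fell. Prkaa1, the alpha 1 catalytic subunit of AMP-activated kinase, had 215, 208 and 223 in resveratrol cultures, against 136, 167 and 172 in control cultures. The groups lay apart, with control replicate 1 the lowest, and the log2 change was 0.42 ± 0.10 (SE, adjusted p = 0.0328), which passed in 9 of 17 alternatives. Its call was lost with a block on the spike signal, at 0.39 (adjusted p = 0.0742), with no filter (adjusted p = 0.0651) and without an intensity trend (adjusted p = 0.0919). Of the 6 fits that leave out an array, Prkaa1 passed only without control replicate 3 (adjusted p = 0.0356), and its log2 changes in these fits ran from 0.32 to 0.47. Cdh13, which encodes T-cadherin, a binding partner of circulating adiponectin multimers, had 0.18 (adjusted p = 0.271), and Prkaa2, the other catalytic subunit, had -0.47 ± 0.19 (SE, adjusted p = 0.168).

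Rarres2, which encodes chemerin, had 2765, 2564 and 2593 in resveratrol cultures, against 3983, 3799 and 3099.7 in control cultures, at its brightest probe set. All resveratrol arrays were below all control arrays, and control replicate 3 was again the nearest. The log2 change was -0.45 ± 0.10 (SE, 95% interval -0.67 to -0.23) with adjusted p = 0.0201. A second probe set had 2453.5, 2257 and 2297 with resveratrol and 3201, 2936 and 2806 in controls, a log2 change of -0.35 ± 0.08 (SE, adjusted p = 0.0246). Both names end in _s_at, which marks probe sets that can match more than 1 transcript. The third probe set, which is free of that mark and dim, had 49.3, 56.4 and 56.9 with resveratrol and 82.9, 60.9 and 63.1 in controls, groups that also lay apart, with a log2 change of -0.27 ± 0.15 (SE, adjusted p = 0.323).

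The brightest Rarres2 probe set had a log2 difference of -0.49 within the arrays of brighter spikes, -0.26 within the dimmer-spike arrays and -0.38 when blocked on the spike signal (adjusted p = 0.0123). Its adjusted p was 0.0636 without control replicate 1, 0.0803 without control replicate 2, 0.0895 without resveratrol replicate 2 and 0.0658 without resveratrol replicate 3, and it was 0.0642 with no filter and 0.0898 without an intensity trend. The second probe set of Rarres2 lost its call under the same settings and without resveratrol replicate 1 (adjusted p = 0.053). The chemerin receptor genes Gpr1 and Ccrl2, at intensities of 34.8 or lower, did not pass, and Cmklr1, the main signalling receptor, was too dim to be tested.

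**Figure D3:**
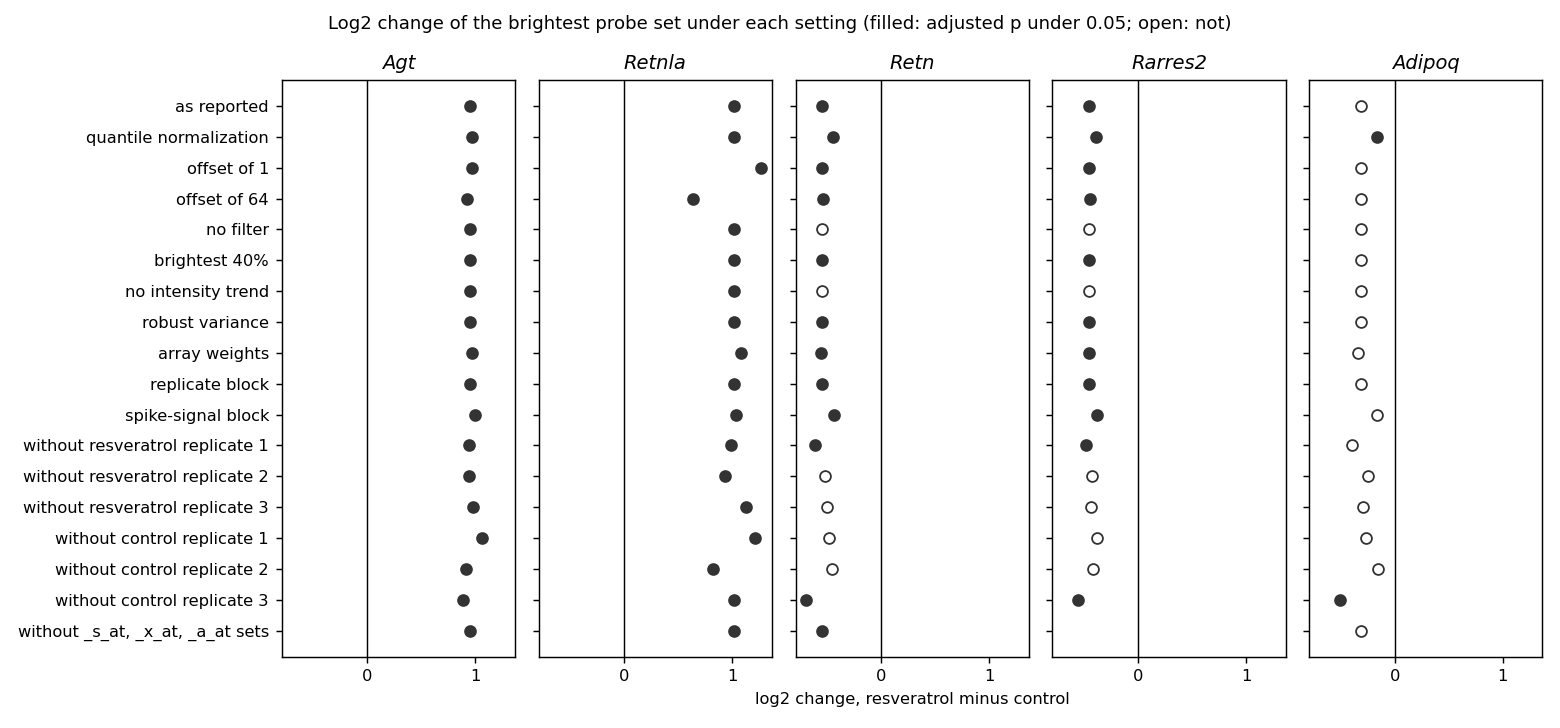
Log2 change, resveratrol minus control, of the brightest probe set of Agt, Retnla, Retn, Rarres2 and Adipoq as reported and under each alternative setting, filled where adjusted p was under 0.05 and open where it was not. Agt (0.89 to 1.07) and Retnla (0.64 to 1.27) are filled throughout, Retn and Rarres2 are open in 6 settings each, and Adipoq is filled in 2.

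Apln, which encodes apelin, a peptide ligand of the receptor from Aplnr that is secreted by fat cells and endothelium, had 1065, 1047.5 and 1017 in resveratrol cultures, against 1089, 1234 and 1190.4 in control cultures. All resveratrol arrays were below all control arrays by a small margin, and the log2 change of -0.16 ± 0.07 (SE, 95% interval -0.33 to 0.0011) had adjusted p = 0.233. It passed under none of the alternatives. Aplnr and Apela, the gene of a second ligand, were too dim to be tested.

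Serpinf1, the gene of pigment epithelium-derived factor, had 5959.8, 4961 and 5201 in resveratrol cultures, against 5001, 5605 and 4633 in control cultures. The groups overlapped, with a log2 change of 0.08 ± 0.10 (SE, 95% interval -0.15 to 0.31) and adjusted p = 0.726. Its other probe set had 3311, 2951 and 3088 with resveratrol and 2636, 3015 and 2598 in controls, and overlapped through control replicate 2 alone, with a log2 change of 0.18 ± 0.09 (SE, adjusted p = 0.26). That probe set passed with quantile normalization, at 0.23 (adjusted p = 0.0283). Of 4 other tested genes for proteins reported to bind this factor, Pnpla2, the triglyceride lipase, and Lrp6, a Wnt co-receptor, fell. Their log2 changes were -0.40 (adjusted p = 0.0254) and -0.29 (adjusted p = 0.0416), where 5.21% of all genes tested fell. Plxdc1, which was dim, had 0.74 ± 0.24 (SE, adjusted p = 0.0893), with all resveratrol arrays above all control arrays. Rpsa had 0.06 (adjusted p = 0.822), and neither passed. Pnpla2 passed in 2 and Lrp6 in 1 of the 6 fits that leave out an array, with log2 changes from -0.46 to -0.34 and from -0.34 to -0.25. Both calls were also lost with no filter (adjusted p = 0.0781 for Pnpla2 and 0.0738 for Lrp6) and without an intensity trend (0.0908 for Pnpla2 and 0.147 for Lrp6), and that of Lrp6 with the replicate number as a block (adjusted p = 0.0515). No other probe set of Pnpla2 or Lrp6 passed.

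Lep, the gene of leptin, was the only member too dim to be tested, with a mean intensity of 10.2 where the dimmest probe set tested had 21.0. Its intensities were 6.1, 7.5 and 2.7 in resveratrol cultures and 26.4, 8.5 and 9.9 in control cultures, so the groups did not overlap, and control replicate 1 stood above the other 5 arrays. With no filter on dim probe sets its log2 change was -0.49 ± 0.22 (SE, adjusted p = 0.345). Among 6 tested genes of leptin receptor signalling, none passed at the brightest probe set. Lepr, the receptor, had 41.1, 44.8 and 8.8 with resveratrol and 24.5, 38.4 and 41.5 in controls (adjusted p = 0.797). Jak2, the kinase bound to that receptor, had -0.34 ± 0.11 (SE, adjusted p = 0.0994) at its brightest probe set. The other Jak2 probe set did pass, at -0.47 ± 0.10 (SE, adjusted p = 0.0125), with 136, 128 and 129 in resveratrol cultures against 202, 181 and 179.9 in control cultures.

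Other secreted factors of fat cells included rises and falls. Of 21 tested genes, 2 rose, 3 fell and 16 did not pass, with a median log2 change of 0.09. Of all genes tested by their brightest probe set, 5.34% rose and 5.21% fell. Gas6, a ligand of the TAM receptor kinases, had 4260.4, 3751.5 and 4008 in resveratrol cultures, against 2249.5, 2262 and 2106 in control cultures, a log2 change of 0.86 ± 0.08 (SE, adjusted p = 0.000135). Hp, which encodes haptoglobin, had 1704, 1899 and 1267 with resveratrol and 4676, 4179 and 3893 in controls, a log2 change of -1.40 ± 0.13 (SE, adjusted p = 0.000138). Both pairs of groups lay well apart. Lcn2, the gene of lipocalin 2, rose by 0.70, and Nampt, also known as visfatin, fell by 0.39 on the log2 scale (adjusted p = 0.00916). Angptl4, an inhibitor of lipoprotein lipase named here after its value was seen, fell by 0.36 (adjusted p = 0.00949). Without an intensity trend the calls of Nampt (adjusted p = 0.0695) and Angptl4 (adjusted p = 0.0713) were lost. No other probe set of Gas6, Nampt or Angptl4 passed, while Hp and Lcn2 have only 1 each. Vegfa, the gene of an angiogenic growth factor, did not pass at its brightest probe set (-0.39, adjusted p = 0.0531), while its other one passed at -0.60 (adjusted p = 0.00401). Of 3 tested genes among 12 relatives of adiponectin with a C1q domain, C1qtnf12, the gene of adipolin, fell by 1.23 on the log2 scale (SE 0.09, adjusted p = 1.55e-05), with 178, 197 and 171 in resveratrol cultures against 475, 424 and 440.3 in control cultures, and 9 were too dim.

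**Figure D4:**
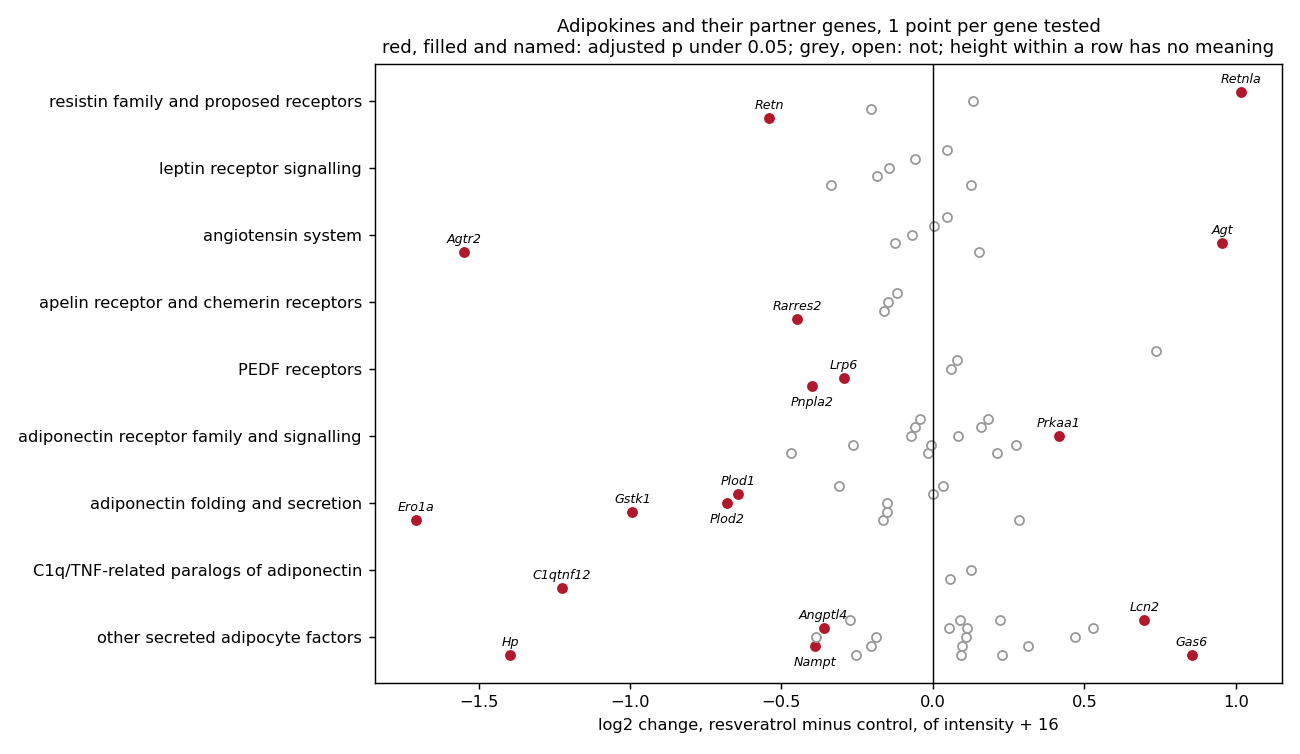
Log2 change of intensity plus 16, resveratrol minus control, for each gene tested of the 9 lists of adipokines and partner genes, 1 point per gene at its brightest probe set, red and named where adjusted p was under 0.05. Ero1a (-1.71), Agtr2 (-1.55) and Hp (-1.40) lie farthest to the left, and Retnla (1.02) and Agt (0.96) farthest to the right.

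Adipocyte markers were read in both groups, and 2 of those listed, Plin1 and Adrb3, had no probe set that names only 1 gene. All 8 adipocyte markers on the array were bright enough to be tested. Their means ran from 346 (Slc2a4) to 9926 (Fabp4) with resveratrol and from 928 to 11745 in controls. Of these, Slc2a4, Cidec and Cd36, a glucose transporter, a lipid droplet protein and a fatty acid carrier, fell, none rose and 5 did not pass at their brightest probe set, with a median log2 change of -0.27. Fabp4, a fatty acid binding protein, is among the 5, although 2 of its dimmer probe sets passed, at -0.51 (adjusted p = 0.00174) and -0.67 (adjusted p = 0.00135). Of all genes tested by their brightest probe set, 5.21% fell and 5.34% rose. The call of Cd36 was lost without resveratrol replicate 2 (adjusted p = 0.0749) and without control replicate 2 (adjusted p = 0.0518). Without an intensity trend the calls of Cd36 (adjusted p = 0.0617), Cidec (adjusted p = 0.0557) and Thy1 (adjusted p = 0.0656) were lost. Of 6 tested preadipocyte markers, Zfp521, a repressor of adipogenesis, and Thy1, a fibroblast surface protein, rose by 0.56 (adjusted p = 0.00342) and 0.40 (adjusted p = 0.00807), and 4 did not pass. Those 4 were Pdgfrb at 0.18, Dlk1 at 0.08, Pdgfra at -0.07 and Gata2 at -0.31 (adjusted p = 0.139). The resveratrol arrays of Gata2 all lay below its control arrays. No other probe set of Zfp521 passed. The summed intensity of the 8 preadipocyte markers was 7405 to 8343 on resveratrol arrays and 7132 to 7574 on control arrays. Some of them were bright in both groups, such as Dlk1, with means of 4065 with resveratrol and 3854 in controls. The endothelial markers were dim, with 2 of 7 tested and none passing. The part of cell composition in the results for the adipokines was not tested.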

How the data were processed

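Per the labels' protocols, RNA from 3T3-L1 cultures was labelled and hybridised to 6 Affymetrix arrays. The authors deposited 1 linear intensity per probe set and array. The software behind these values is not named in the sources, and their trimmed mean was 150 on every array, as read from the table. Of the control replicate 1 values, 0.789% had at most 1 decimal, against 100% elsewhere.

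Of 45101 probe sets, 64 controls were dropped, and 34945 name 1 gene, 932 several and 9160 none in the platform annotation. All 16 member probe sets matched RefSeq (GRCm38.p6) by symbol, and 9 of the 10 genes had a promoter entry.

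The deposited intensities were analysed as log2(intensity + 16), a scale on which dim probe sets appear to change less. The brightest 60% by mean, 27022 probe sets, entered limma 3.58.1 (R 4.3.3) with lmFit and trended eBayes. Tests were 2-sided at a threshold of 0.05 after Benjamini-Hochberg adjustment, and the fit was tested on simulated data. Counts of genes use the brightest probe set of each. The naming rule took all members and, from every list, up to 4 genes ranked by p. Other genes named, such as Ace, Agtr1a, Lepr, Angptl4, Vegfa, the untested genes, the cell type markers and the remaining folding genes, fall outside it and were chosen after their values were seen. The members, lists and tests were chosen with earlier results of these data known. Alternatives changed the normalization, offset, filter, variance model, array weights, blocks, probe set choice and each array in turn. Those for genes that are not members, and the ratios to Adipoq, were added after seeing the data. Figures used Python 3.11.15 and matplotlib 3.10.9.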

Additional observations from a re-analysis of the deposited data

How the results depend on the processing

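The number of probe sets changed was 2220, and 1396 with no filter on dim probe sets, 848 without an intensity trend and 1115 to 1949 with 1 array left out. The number of member probe sets changed was 5, and 2 with no filter, 2 without an intensity trend, 3 of 9 tested without probe sets named _s_at, _x_at or _a_at and 2 to 6 with 1 array left out. The other settings left both numbers within a factor of 1.5, with 7 members under quantile normalization. Signs turned only for receptor probe sets close to 0. With 1 array left out, the second Adipor1 probe set ran from -0.034 to 0.0029, with 0.0008 without control replicate 3. The brightest Adipor2 probe set had 0.0198 with quantile normalization, 0.0243 with the spike-signal block and -0.0356 to 0.0319 with 1 array left out (0.0275 without control replicate 2), and the other ran from -0.0119 to 0.136. The mean of the probe sets was -0.0374 for Adipor1 and 0.021 for Adipor2. Why these values moved was not tested. With the replicate number as a block 1880 probe sets and 5 members changed. Arrays of the same number did not deviate together (correlations of -0.061, -0.014 and 0.094), and 2 of 6 arrays correlated best with their own number. Bright probe sets such as Adipoq and Retn vary with the array's spike signal, and the dim ones, such as Lep, have no detection call here, which limits both ends of the scale.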
